A study of Mus musculus with 8 samples.

Results

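The 10 genes described here make, move and break down heme: Alas1, Alad, Urod, Cpox and Fech encode enzymes of heme synthesis, Slc48a1 a heme transporter, Hmox1 and Hmox2 the heme oxygenases, and Blvra and Blvrb the biliverdin reductases. They were found by exact match of these symbols in the expression tables, each on 1 row, and are 10 of 55492 genes listed. All 10 passed the filter on low counts and stand among the 13531 genes tested. RNA was sequenced from YUMM5.2, a mouse melanoma line whose strain is given as C57B/6J, in 4 libraries from cultures given the solvent DMSO and 4 from cultures given 4-OI, each cultured for 20 h. In this field 4-OI is the abbreviation of 4-octyl itaconate, an ester that enters cells more readily than itaconate itself. The sources used here do not give its dose or say whether replicates were separate cultures. All p-values therefore measure the spread between these libraries, which may be technical.

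Heme is an iron-holding porphyrin and the working group of cytochromes, catalase and prostaglandin synthases. Its synthesis begins in mitochondria with ALAS1, the rate-limiting enzyme outside red blood cells, passes through the cytosol and ends in mitochondria, where ferrochelatase inserts iron. Heme oxygenase opens the ring and releases iron, carbon monoxide and biliverdin, which biliverdin reductase turns into bilirubin. Free heme lifts repression by BACH1 from Hmox1, a gene that NRF2 activates, and heme also holds ALAS1 down.

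Library totals ranged from 22962963 to 31361677 counts. Of 7 melanocytic markers only Mitf passed the filter. Pmel, Mlana, Tyr, Tyrp1, Dct and Sox10 had at most 8 counts in any library, so these other melanocytic markers were near absent. The summed level of those 7 markers was 6.32 to 7.46 CPM with DMSO and 9.68 to 10.8 CPM with 4-OI, where Mitf rose by 0.64 on the log2 scale (adjusted p = 4.49e-07, edgeR). CPM are counts scaled to a library of 1000000 after correction between libraries. Erythroid markers, which would bring their own heme genes, were at or near 0: the 9 genes together had 8 to 16 counts per DMSO library and 7 to 14 per 4-OI library, and Hbb-bt, Gata1 and Slc4a1 were at 0 in all 8 libraries. A count of 0 allows up to 0.0957 to 0.131 CPM, counting error only. The 8 macrophage markers summed to 2.62 to 3.01 CPM with DMSO and 1.96 to 2.62 with 4-OI, with Adgre1, Lyz2, Cd163 and Spic at 0 in all. The 6 fibroblast markers summed to 195 to 212 CPM and 167 to 182 CPM, with Pdgfra higher, Pdgfrb, Col1a1 and Dcn lower, and Lum at 0 in all. Whether that fall bears on the heme genes was not tested.

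With 4-OI, Hmox1, Blvrb and Slc48a1, of heme breakdown and transport, had larger folds than the 5 synthesis enzymes among the 10. Hmox1 rose 7.73-fold, Blvrb 5.80-fold and Slc48a1 2.73-fold. In synthesis, Alas1 at the start rose 2.05-fold and Fech at the end 1.26-fold, while Cpox fell to 0.850 of its DMSO level. Blvra rose 1.16-fold, and Hmox2, Alad and Urod did not pass the test. By edgeR's quasi-likelihood test at a Benjamini-Hochberg adjusted p under 0.05, 6 of the 10 were therefore higher (60%) and 1 was lower (10%), where 19.3% of all genes tested were higher, 19.6% lower and 38.8% either. The median log2 fold change was 0.27 over the 10 genes and 0.0005 over all genes tested. The 4-OI libraries were all above the DMSO libraries for 6 genes and all below for 1, Cpox, as against 17.4% and 18.0% of all genes tested, or 35.4% together. The genes were picked with earlier results of these data known, so these shares describe them and support nothing further. In bulk RNA, a change in all cells and a larger change in some cannot be told apart.

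**Figure D1:**
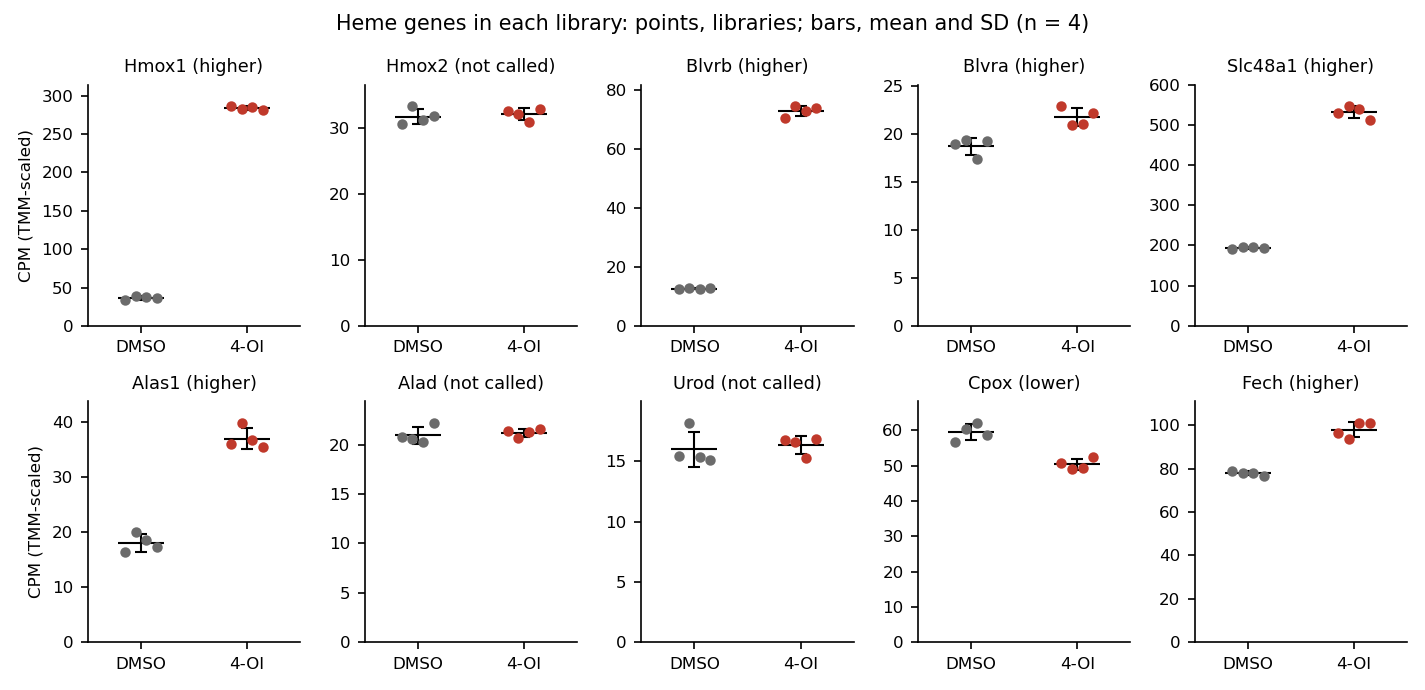
CPM (vertical axis, from 0, scaled between libraries) of the 10 heme genes in each DMSO and 4-OI library. Points are libraries and bars the mean and SD of 4. Hmox1, Blvrb, Slc48a1, Alas1, Blvra and Fech are higher with no overlap, Cpox is lower with no overlap, and Hmox2, Alad and Urod overlap.

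Hmox1, the inducible heme oxygenase (Ensembl ENSMUSG00000005413, GRCm38 chromosome 8, 75093621 to 75100589, plus strand), had 33.25, 39.15, 38.2 and 36.7 CPM in DMSO replicates 1 to 4. With 4-OI it had 286, 283, 286 and 281.5 CPM. The groups are far apart, and DMSO replicate 1 is the lowest of its group. The log2 fold change was 2.95 ± 0.03 (SE, n = 4 per group, edgeR adjusted p = 1.54e-22), the 14th highest of 13531 genes. Hmox2, the constitutive oxygenase (ENSMUSG00000004070, chromosome 16, 4726361 to 4766742), had 30.6, 33.3, 31.2 and 31.9 CPM with DMSO and 32.6, 32.1, 30.9 and 33.0 with 4-OI. Its groups overlap wholly. The log2 fold change was 0.02 with a 95% interval of -0.07 to 0.10, or a fold of 0.952 to 1.08 (edgeR adjusted p = 0.784). Hmox2 overlaps Cdip1 on the opposite strand over 16395 bases of their spans, and the sources used here do not give the strand setting of the counting. Cdip1 was not called (log2 fold change -0.10, edgeR adjusted p = 0.115).

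Measured per length, as TPM (an abundance corrected for transcript length that sums to 1000000 in each library), both oxygenases stood close together in solvent: 39.7 ± 2.66 for Hmox1 and 35.2 ± 2.41 for Hmox2 (SD, n = 4), with overlapping ranges. Hmox1 made up 49.9%, 53.1%, 56.5% and 52.6% of the summed heme oxygenase TPM in the DMSO libraries. With 4-OI the shares were 89.3%, 89.3%, 89.8% and 88.8%. The summed level went from 74.9 ± 3.16 to 345 ± 4.17 TPM (SD, n = 4), so nearly all of the added transcript came from 1 of the 2 genes. These shares combine 2 of the genes described and are given without a test.

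Blvrb reduces a biliverdin isomer other than the one the heme oxygenases make, and flavins (ENSMUSG00000040466, chromosome 7, 27447978 to 27466144, plus strand). It had 12.4, 12.7, 12.4 and 12.8 CPM with DMSO and 70.5, 74.3, 72.7 and 73.8 with 4-OI. Every 4-OI library was well above every DMSO library. The log2 fold change was 2.54 ± 0.04 (SE, n = 4 per group, edgeR adjusted p = 1.42e-20), the 25th highest. Blvra, the main biliverdin reductase of adult tissue (ENSMUSG00000001999, chromosome 2, 127070665 to 127097084, plus strand), had 19.0, 19.3, 17.4 and 19.2 CPM with DMSO and 22.9, 20.9, 21.0 and 22.1 with 4-OI. The groups do not overlap but lie close, with 4-OI replicate 2 at 20.92 CPM just above DMSO replicate 2 at 19.34 CPM. Its log2 fold change was 0.21 ± 0.05 (SE, n = 4 per group, edgeR adjusted p = 0.00243).

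In the DMSO libraries Blvrb took 43.4%, 43.9%, 46.3% and 43.3% of the summed biliverdin reductase TPM. With 4-OI it took 78.4%, 80.5%, 80.6% and 79.6%, so the lower of the pair became the higher in every library. Blvrb went from 23.8 ± 0.153 to 139 ± 1.92 TPM and Blvra from 30.1 ± 1.49 to 35.2 ± 1.81 TPM (SD, n = 4).

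**Figure D2:**
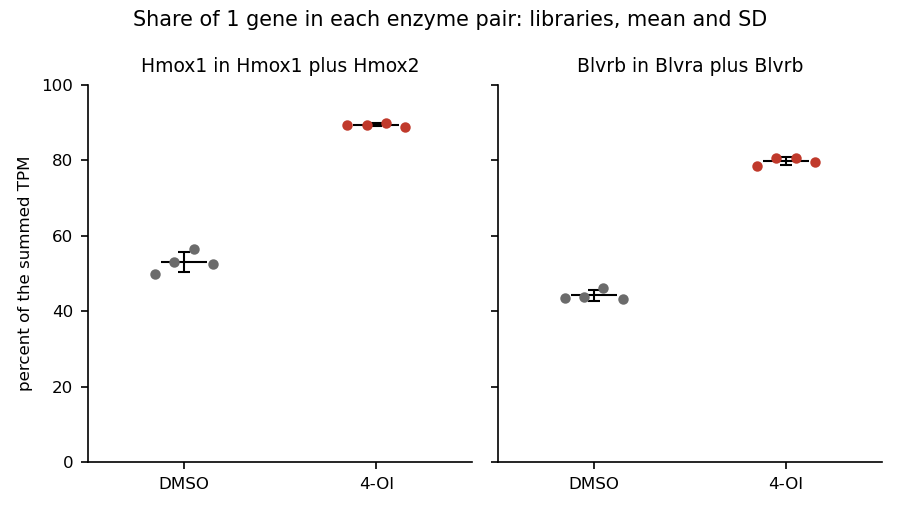
Share (vertical axis, percent of summed TPM) of Hmox1 in Hmox1 plus Hmox2, and of Blvrb in Blvra plus Blvrb, in DMSO and 4-OI libraries. Points are libraries and bars the mean and SD of 4: Hmox1 goes from 53.0% ± 2.72 to 89.3% ± 0.436 and Blvrb from 44.2% ± 1.39 to 79.8% ± 1.03.

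RefSeq promoter entries (build GRCm38.p6) were at hand for 7 of the 10 genes, 12 start sites in all; Hmox1, Slc48a1 and Fech had none. The 250 bases before each start were searched on both strands for the core of the antioxidant response element bound by NRF2 (TGACNNNGC), the core shared by AP-1 and MAF factors (TGANTCA), the core of the nuclear respiratory factor 1 site and the E-box (CACGTG). One stretch can match both of the first 2 patterns. The reductase pair and Cpox are shown because they cover the strong rise, the small rise and the fall. Each is written 5′ to 3′ on the gene's strand, from 250 bases to 1 base before the start, with motif matches in capitals, at chr7:27447728-27447977 for Blvrb, chr2:127070407-127070656 for Blvra and chr16:58669958-58670207 for Cpox, all on the plus strand.
Blvrb: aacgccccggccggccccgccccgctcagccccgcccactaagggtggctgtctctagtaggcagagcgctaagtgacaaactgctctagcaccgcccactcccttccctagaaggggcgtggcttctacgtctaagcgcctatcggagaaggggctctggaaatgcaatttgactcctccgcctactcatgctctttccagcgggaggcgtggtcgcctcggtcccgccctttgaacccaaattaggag
Blvra: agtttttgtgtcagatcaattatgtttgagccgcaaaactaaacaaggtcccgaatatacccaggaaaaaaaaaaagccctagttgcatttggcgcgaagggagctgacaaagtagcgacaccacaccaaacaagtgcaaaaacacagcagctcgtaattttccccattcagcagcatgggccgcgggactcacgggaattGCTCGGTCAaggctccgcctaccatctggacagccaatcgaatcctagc
Cpox: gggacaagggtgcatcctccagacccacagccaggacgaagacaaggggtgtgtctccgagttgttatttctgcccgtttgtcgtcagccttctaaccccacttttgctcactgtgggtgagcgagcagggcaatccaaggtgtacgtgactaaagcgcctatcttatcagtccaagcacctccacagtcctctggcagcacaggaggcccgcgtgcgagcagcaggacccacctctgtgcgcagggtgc

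Of those 3 stretches, only that of Blvra held a match, to TGACNNNGC on the minus strand, at positions -49 to -41. It was the only match to that pattern among the 12 entries, against 10.2% of all 32851 promoter entries, and TGANTCA was found in none of the 12, against 6.75% of all. Over 12 entries, 1 and 0 matches lie near those shares. So few entries, with none for Hmox1, Slc48a1 or Fech, cannot show whether the patterns set the heme genes apart from others. Bases outside the window were not searched, and whether either pattern bears on the rise of Blvrb or Blvra was not tested. A 59-base stretch before an Alas1 start (chr9:106247906-106247964, minus strand) is shown because it holds the nuclear respiratory factor 1 pattern at positions -224 to -215 and -195 to -186, in capitals; 1.83% of all entries hold that pattern, and among the 12 this one alone.
Alas1: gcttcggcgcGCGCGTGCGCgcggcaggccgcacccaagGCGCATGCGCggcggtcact
The E-box was found at positions -105 to -100 before an Alad start and -28 to -23 before another Alad start. It also lay at -49 to -44 before a Urod start, and before no other of the 7 genes. Of all entries, 6.02% hold it, a share of entries and not of genes.

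Slc48a1, also called HRG1, carries heme out of endosomes and lysosomes into the cytosol (ENSMUSG00000081534, chromosome 15, 97778520 to 97792692, plus strand). It had 192, 197, 196 and 194 CPM with DMSO and 530.0, 546, 539 and 512 CPM with 4-OI. All 4-OI libraries lie above all DMSO libraries, and replicate 4 is the lowest of its group. The log2 fold change was 1.45 ± 0.03 (SE, n = 4 per group, edgeR adjusted p = 1.02e-19). Its span shares 29 bases with Hdac7 on the other strand, and Hdac7 was not called (log2 fold change -0.03, edgeR adjusted p = 0.400). Per length, Slc48a1 was the highest of the 10 genes in both groups, at 119 ± 1.14 TPM with DMSO and 329 ± 11.2 TPM with 4-OI (SD, n = 4).

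In DMSO, Slc48a1 was followed by Fech at 47.2 ± 1.296 TPM, and neither overlapped its next neighbour. Below Fech came Hmox1, Hmox2, Alad, Blvra and Cpox, each overlapping the next, though Hmox1 lay wholly above Alad and Hmox2 wholly above Blvra. Blvrb lay below Cpox and above Alas1 at 20.2 ± 2.77 TPM (SD, n = 4), with no overlap on either side. Urod has no settled place: its mean of 27.2 ± 13.4 TPM rests on DMSO replicate 4, and without that library it was 20.6 ± 2.40 TPM (SD, n = 3), level with Alas1. With 4-OI the order was Slc48a1, Hmox1, Blvrb and Fech, with no overlap between neighbours. Alas1 followed at 40.8 ± 5.14 TPM, overlapping Hmox2 at 36.9 ± 1.36 TPM, which overlapped Blvra. Alad, Cpox and Urod were the lowest, each clear of the next.

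**Figure D3:**
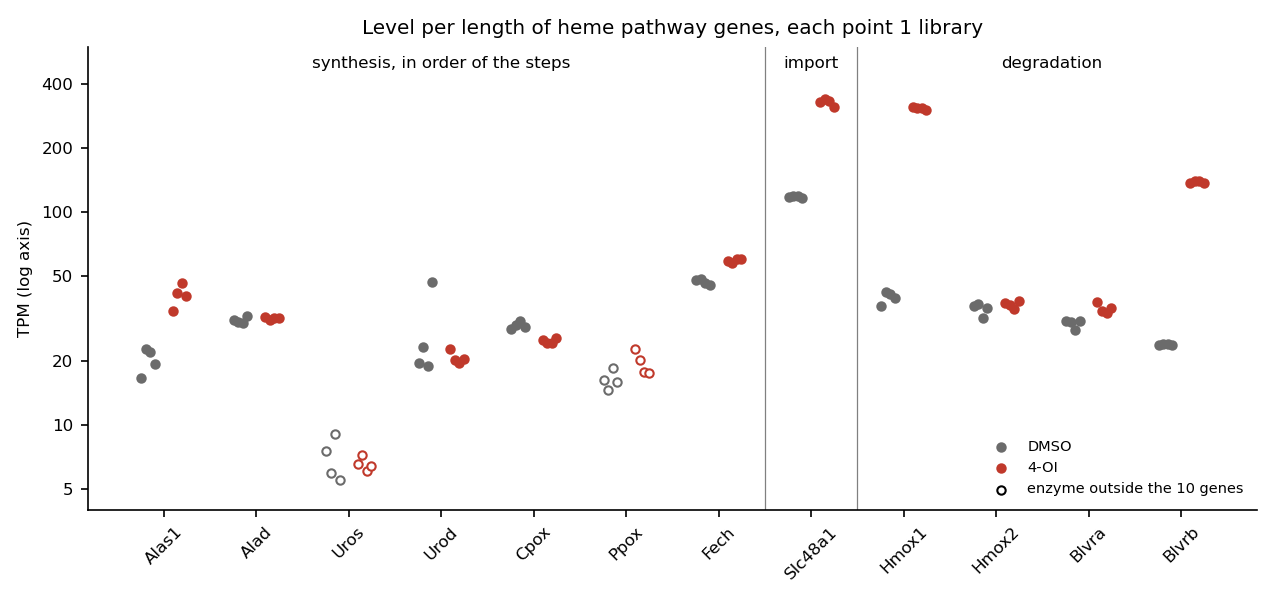
TPM (vertical log axis) of heme pathway genes in each library, with 7 enzymes of synthesis in order of their steps, then the transporter, then the breakdown enzymes. Each point is 1 library, and open points are enzymes outside the 10 genes. Slc48a1, Hmox1 and Blvrb stand at 314 TPM or more, 302 or more and 137 or more with 4-OI, above each of those enzymes.

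Among the synthesis enzymes, Alas1, the first and controlling step (ENSMUSG00000032786, chromosome 9, 106233455 to 106248654, minus strand), had 16.3, 20.05, 18.6 and 17.3 CPM with DMSO. With 4-OI it had 35.9, 39.85, 36.7 and 35.5 CPM. The groups are clearly apart, with replicate 2 the highest in each. The log2 fold change was 1.04 ± 0.06 (SE, n = 4 per group, edgeR adjusted p = 1.54e-11). Fech, ferrochelatase of the last step (ENSMUSG00000024588, chromosome 18), had 78.9, 77.9, 77.85 and 76.7 CPM with DMSO and 96.3, 93.6, 101 and 101 CPM with 4-OI. It separated the groups fully, with a log2 fold change of 0.33 ± 0.03 (SE, n = 4 per group, edgeR adjusted p = 2.54e-08).

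Cpox, coproporphyrinogen oxidase of the mitochondrial intermembrane space (ENSMUSG00000022742, chromosome 16, 58670292 to 58717636, plus strand), had 56.8, 60.3, 62.1 and 58.6 CPM with DMSO. With 4-OI it had 50.8, 49.1, 49.5 and 52.5 CPM, each below the lowest DMSO library. It fell by 0.23 on the log2 scale (SE 0.04, edgeR adjusted p = 2.28e-05), the single gene of the 10 that did. Alad, which joins 2 aminolevulinic acids (ENSMUSG00000028393, chromosome 4, 62509169 to 62519918), had 20.7, 20.6, 20.3 and 22.2 CPM with DMSO and 21.4, 20.6, 21.2 and 21.6 with 4-OI. Its groups overlap, and its log2 fold change of 0.01 had a 95% interval of -0.08 to 0.11 (edgeR adjusted p = 0.834).

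Urod, the decarboxylase that makes coproporphyrinogen (ENSMUSG00000028684, chromosome 4, 116989965 to 116994413), was the member whose value depended on the unit. Its expected counts of 405, 437, 349 and 471 with DMSO became 15.4, 18.2, 15.3 and 15.1 CPM, and with 4-OI it had 16.7, 16.6, 15.25 and 16.9 CPM. The groups overlap, with a log2 fold change of 0.03 and a 95% interval of -0.09 to 0.16 (edgeR adjusted p = 0.694). In TPM, DMSO replicate 4 stood at 47.2 against 19.6, 23.3 and 18.9 in replicates 1 to 3 and 19.65 to 22.7 with 4-OI. The effective length that count and FPKM together imply was 432 bases in that library. It was 1090, 1064 and 1101 bases in DMSO replicates 1 to 3 and 1014 to 1142 bases in the 4 treated libraries. The annotation lists 10 Urod transcripts of 162 to 1489 bases, 7 of them with a retained intron. On log2(TPM + 1) the difference was -0.28 (limma adjusted p = 0.454), the opposite sign, again not called. Of 10047 genes with at least 100 counts and 1 FPKM in every library, 113 had a library whose implied length was 1.5-fold or more off the median of the others, and Urod was the 1 heme gene among them.

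**Figure D4:**
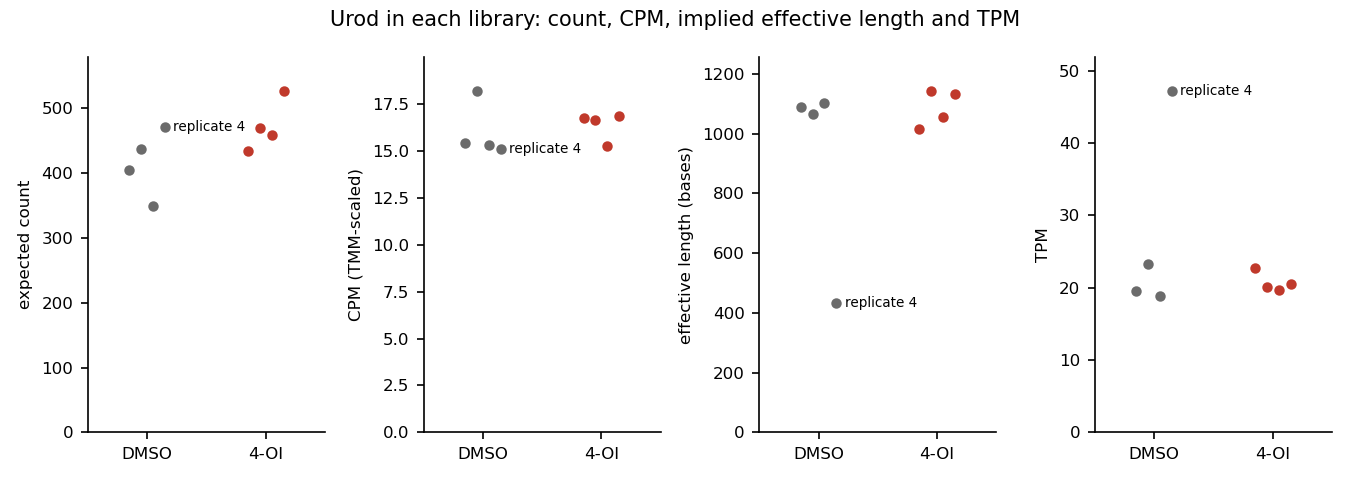
Urod expected count, CPM, implied effective length in bases and TPM in each library (vertical axes from 0), DMSO and 4-OI libraries as points. DMSO replicate 4 has an ordinary count and 15.1 CPM, a length of 432 bases and 47.2 TPM.

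Beside these 5 enzymes of the route, 2 others are described. Ppox, the oxidase after Cpox, went from 16.5 ± 0.800 to 18.9 ± 1.58 CPM (SD, n = 4), a log2 difference of 0.20 (adjusted p = 0.0142, edgeR). On the TPM and FPKM scales the difference was 0.25 to 0.26 with a wider spread and was not called (limma adjusted p = 0.0819 to 0.207). Uros was not called (-0.18, edgeR adjusted p = 0.188). Of these 7 enzymes, 3 were thus higher, 1 was lower and 3 did not pass, against 19.3% higher and 19.6% lower of all genes. For Alas2, the red-cell form of the first enzyme, the DMSO libraries held 4, 0, 3 and 3 counts and the 4-OI libraries 1, 1, 2 and 2 (two-sided exact permutation p = 0.286), too few to compare.

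Mitochondrial carriers and partners of synthesis gave 4 higher and 2 lower of 13 tested, against 19.3% and 19.6% of all genes, around a median of 0.03 on the log2 scale. Abcb6, a porphyrin transporter, had 16.8, 16.3, 16.55 and 17.1 CPM with DMSO and 31.4, 32.3, 31.6 and 29.4 with 4-OI, a log2 difference of 0.90 (adjusted p = 6.10e-12, edgeR). Pgrmc1, a heme-binding membrane protein, rose from 110 ± 2.52 to 177 ± 5.58 CPM (SD, n = 4), a log2 fold change of 0.68, while its relative Pgrmc2 fell by 0.16. Clpx, an unfoldase that acts on ALAS, rose by 0.14 (edgeR adjusted p = 0.00975). Its groups overlap, with DMSO up to 38.33 CPM and 4-OI down to 38.0 CPM. Abcb10, an inner-membrane transporter that supports heme synthesis, fell from 69.4 ± 2.88 to 53.4 ± 2.87 CPM (SD, n = 4), a log2 difference of -0.38 (adjusted p = 2.15e-07, edgeR). Slc25a37, the iron carrier mitoferrin 1, was higher by 0.21 in counts (edgeR adjusted p = 8.64e-06), but stood at 51.9 ± 2.03 and 52.1 ± 1.79 TPM (SD, n = 4), where limma did not call it (adjusted p = 0.924). Its implied effective length was 3703 to 3972 bases with DMSO and 4382 to 4552 with 4-OI.

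None of the 5 genes tested that make heme a (Cox10, Cox15, Fdx1, Fdx2 and Fdxr) was called by edgeR or by DESeq2. Their edgeR log2 fold changes were -0.07 to 0.12. Of all genes edgeR called 38.8%, and 5 genes are too few to set against that share. Cox15 was nearest (0.10, edgeR adjusted p = 0.0914) and alone had an unadjusted p under 0.05. It passed with library totals (0.12, edgeR adjusted p = 0.0444) and without 4-OI replicate 2 (0.0457). Of 7 tested genes for other import, export and binding, 3 were higher and 2 lower, 5 of 7 called against 38.8% of all genes. Abcc5, an exporter that can carry heme, went from 49.9 ± 3.03 to 70.01 ± 2.34 CPM (SD, n = 4). Flvcr1, known as a heme exporter, was higher by 0.25 (edgeR adjusted p = 0.000479) and Slc46a1, the folate and heme carrier, by 0.29 (edgeR adjusted p = 0.00688; DESeq2 adjusted p = 0.0515). Lrp1, the receptor for heme bound to hemopexin, was lower by 0.21 on the log2 scale (-0.21), and Abcg2 by less (-0.15, edgeR adjusted p = 0.0345), a call lost in several alternatives, among them those without DMSO replicate 2, DMSO replicate 4, or the treated replicate 1, 2 or 4 (adjusted p = 0.0699 to 0.119, edgeR). Hebp1 (0.06) and Hebp2 (0.07) were not called.

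Among 11 tested regulators, 4 were higher and 1 was lower, 5 of 11 called against 38.8% of all genes. Mafg, a small MAF partner of both NRF2 and BACH1, went from 99.0 ± 1.76 to 135 ± 0.998 CPM (SD, n = 4), and Bach1, the heme-sensing repressor of Hmox1, from 37.9 ± 0.963 to 49.5 ± 1.72 CPM. Nr1d2, a nuclear receptor that binds heme, was higher by 0.26 on the log2 scale, and Keap1 by 0.18. Nfe2l2, which encodes NRF2, was the lower one (-0.13). The list of the oxygenase's electron donor, iron storage and bilirubin disposal had 5 genes tested, all called higher, against 19.3% of all genes; 2 of those calls, Slc40a1 and Por, carry the limits given below. Abcc1, an efflux pump for conjugates that also carries bilirubin, had 197.5, 200, 201 and 197 CPM with DMSO and 398.5, 412, 405 and 386 with 4-OI, a log2 difference of 1.01 (adjusted p = 2.89e-17, edgeR). The ferritin subunits Ftl1 and Fth1, which store iron, were higher by 1.26 and 1.02 on the log2 scale, and their pseudogenes can share reads. The iron exporter Slc40a1 had counts of 3, 1, 2 and 1 with DMSO and 13, 19, 15 and 16 with 4-OI (edgeR adjusted p = 1.59e-05). It passed the filter on low counts only through the 4-OI group, so its call is no support, and in TPM DMSO replicate 3 (0.64) stood above all 4 treated libraries (0.21 to 0.35). Por, the electron donor of heme oxygenase, was just past the threshold (0.06, edgeR adjusted p = 0.0496). That call was lost without any 1 of the DMSO replicates or of treated replicates 1, 2 and 3 (adjusted p = 0.0597 to 0.163, edgeR).

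**Figure D5:**
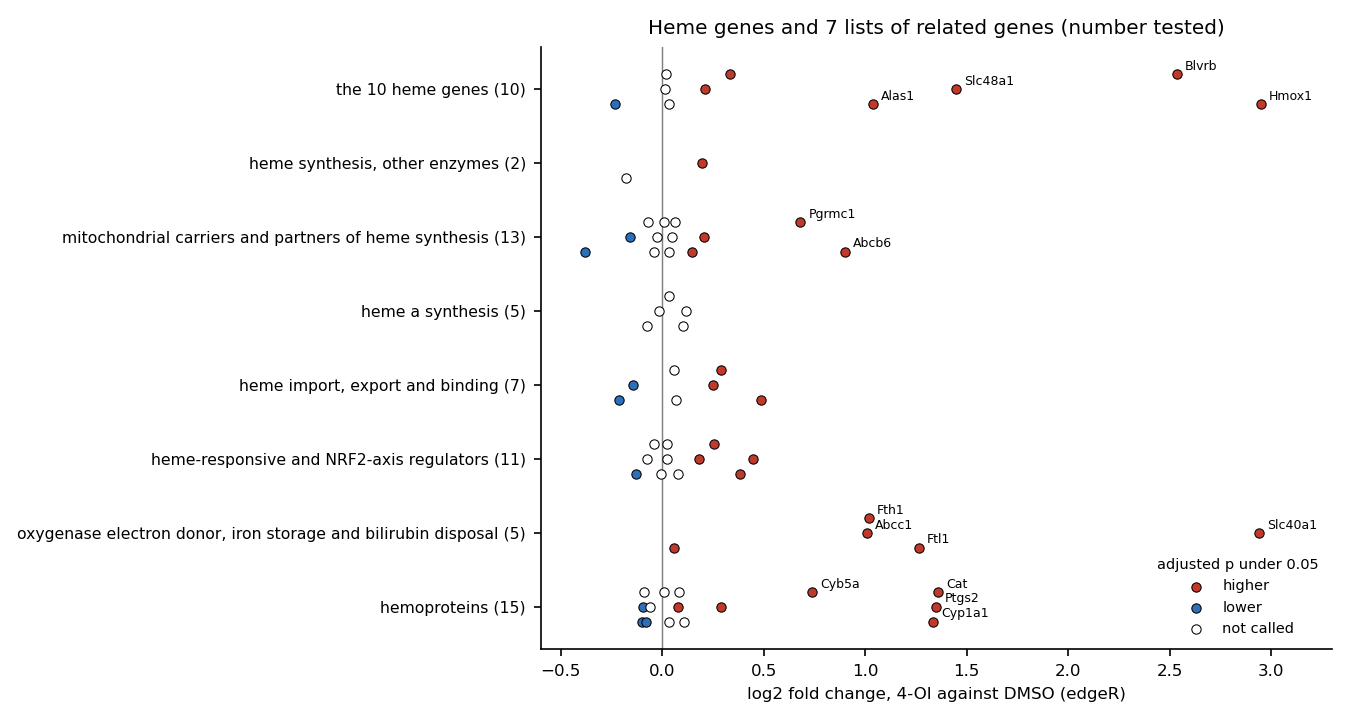
Log2 fold change of 4-OI against DMSO (horizontal axis, edgeR) for the 10 heme genes and 7 lists of related genes, 1 point per tested gene, with the number tested in brackets. Red is called higher, blue called lower and white not called. Hmox1 (2.95) lies farthest right beside Slc40a1 (2.94), which had 1 to 3 counts per DMSO library and entered the test only through its 4-OI counts, and Abcb10 (-0.38) lies farthest left.

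Of 15 tested hemoproteins, 6 were higher and 3 lower, against 19.3% and 19.6% of all genes. Catalase, Cat, went from 73.3 ± 1.46 to 188 ± 2.63 CPM (SD, n = 4) and Cyb5a, cytochrome b5, from 52.8 ± 2.09 to 87.9 ± 2.87 CPM. Ptgs2, a heme-dependent prostaglandin synthase, was higher by 1.35 on the log2 scale, and its relative Ptgs1 was not called (0.01, edgeR adjusted p = 0.818). Cyp1a1, a cytochrome P450, had 7 to 15 counts per DMSO library and 19 to 35 per 4-OI library; it is among the 6 but passed the filter only through the 4-OI group, so its call is no support. Suox (0.29) and Cyb5b (0.08) were higher, and Cycs (-0.10), Sdhd (-0.10) and Cyp51 (-0.08) lower. These last 3 calls were each lost on leaving out single libraries (adjusted p = 0.0515 to 0.103, edgeR): DMSO replicate 4 and treated replicates 1 and 2 for Cycs and Sdhd, also DMSO replicates 2 and 3 and treated replicate 3 for Sdhd, and treated replicate 2 for Cyp51. In TPM none of the 3 was called by limma. Over all 7 lists, 58 of 75 genes were tested, of which 23 were higher, 8 lower and 27 not called (over all genes, 19.3% higher and 19.6% lower), around a median log2 fold change of 0.06. The other 17, among them the plasma heme binder Hpx, stood at a group mean of 0.325 CPM or less. Of the 16 with any count, none reached the smallest p that the design allows, 0.0286, by two-sided exact permutation test (smallest p = 0.0571, Benjamini-Hochberg value 0.457). Over 16 such tests, a lone gene at that limit could not have passed the adjustment, so the test cannot decide whether these genes differed.

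Outside the lists, the genes whose log2 CPM followed Hmox1 most closely over the 8 libraries were Lipa (r = 0.9997), Plin2 (0.9995) and Cpt1a (0.9992). The other heme genes described and all predicted or clone names were left out of this ranking. The libraries fall into 2 groups and share their totals, so this likeness mostly ranks how tightly each gene splits the groups. Lipa, lysosomal acid lipase, went from 23.5 ± 0.662 to 49.5 ± 0.574 CPM, Plin2, a lipid droplet coat protein, from 183 ± 4.46 to 329 ± 2.58 CPM and Cpt1a, the mitochondrial fatty acid importer, from 34.1 ± 0.907 to 106 ± 3.00 CPM (SD, n = 4).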

How the data were processed

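Per the labels' protocols, polyA RNA was made into Illumina TruSeq libraries and sequenced as paired ends on a NextSeq instrument. Per the submitters' processing notes, which give no role or order, the tools were RSEM 1.3.3, STAR 2.7.8a, cutadapt 2.3, MultiQC 1.7 and FastQC 0.11.8, on build GRCm38. The sources used here do not give the annotation release or strand setting. The authors deposited 3 tables: expected counts, whole numbers in every cell; TPM, which the authors scaled for effective length and to the same sum in each library; and FPKM, which the authors scaled for effective length and library depth. Groups and replicate numbers came from the titles, and columns were matched by description. Positions came from GENCODE M21, same build.

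Expected counts were tested with edgeR 4.0.16 in R 4.3.3: filterByExpr (minimum count 10), TMM scaling, the quasi-likelihood F test (two-sided) between 4-OI and DMSO with no covariate, and Benjamini-Hochberg adjustment over 13531 genes; genes are called at an adjusted p under 0.05. Standard errors and 95% intervals derive from the F statistic. CPM use TMM-scaled totals. TPM and FPKM were tested with limma 3.58.1 with a trend on log2(value + 1). Effective length is the count divided by FPKM and library total. Alternatives were DESeq2 1.42.0, other scalings, no filter, another pseudocount, GC and length offsets (loess, 13517 genes with values), the replicate number as a block and leaving out each library. The procedure was tested on simulated counts. Within a group, chi-square per degree of freedom between any pair of libraries was 1.89 to 4.80, above sampling noise. Each library was counted as 1 replicate, and this spread cannot show whether the libraries came from separate cultures.

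Members and lists were chosen with earlier results of these data known. The named genes are the 10 members, up to 4 called genes per list by size of change, those not called where 5 or fewer, and the 3 most like Hmox1; other listed genes were named after their values were seen. Of the listed genes, 2 genes are not reported here.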

Additional observations from a re-analysis of the deposited data

Results flagged for a closer look

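Of 102 groups of 4 libraries checked, 9 had 1 library set apart from the other 3 by more than Dixon's 95% limit; chance flags about 1 in 20 such groups, or 5.1 here. Urod gave 3 of them. In TPM, DMSO replicate 4 stood at 47.2 against 18.9 to 23.3 in the others, the value tied to the short implied length described above. In CPM, DMSO replicate 2 was highest at 18.2 against 15.1 to 15.4, and 4-OI replicate 3 lowest at 15.25 against 16.6 to 16.9. Blvra TPM was lowest in DMSO replicate 3, at 27.9 against 30.6 to 31.01.

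Among the other genes, Abcb10 was highest in DMSO replicate 3 (73.7 CPM against 67.6 to 68.3) and lowest in 4-OI replicate 4 (49.1 against 54.5 to 55.3). Cox10 was highest in 4-OI replicate 1 (18.0 CPM against 17.1), Fdx2 lowest in DMSO replicate 1 (13.0 against 13.9 to 14.0) and Slc40a1 highest in 4-OI replicate 2 (0.674 against 0.499 to 0.513).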

How the results depend on the processing

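The counts of 6 members higher and 1 lower were the same under all 19 alternatives, the highest adjusted p of a called member being 0.0234 (Blvra, limma on log2(TPM + 1), no filter). Hmox1 ranged from 2.90 to 2.98, Blvrb from 2.48 to 2.56, Slc48a1 from 1.44 to 1.47, Alas1 from 0.98 to 1.09, Fech from 0.32 to 0.35, Blvra from 0.18 to 0.23 and Cpox from -0.26 to -0.21. Genes not called changed sign: Hmox2 without DMSO replicate 1 (-0.0003; 0.0391 at most without another library); Urod with limma on log2(TPM + 1) with and without the filter (-0.28), log2(TPM + 0.1) (-0.29) and log2(FPKM + 1) (-0.27); Cox10 with library totals (0.0013) and without DMSO replicate 1 (0.0034; down to -0.0347 without another library); and Fdx1 without 4-OI replicate 4 (-0.0273; up to 0.0844 without another library). Without the filter, limma did not call Slc40a1 (adjusted p = 0.670) or Flvcr1 (0.0566). Over all genes, limma on log2(TPM + 1) with no filter called 1362 higher and 1284 lower, and with the filter 1722 and 1552, against 2607 and 2646. With library totals 3020 were higher and 2323 lower, 56.5% of calls higher against 49.6%. The cause was not tested. Deviations of same-numbered libraries correlated weakly, at -0.02 to 0.07, and those of unlike-numbered pairs at -0.12 to 0.04. Replicates 1 (0.0689) and 2 (0.0702) lay above all unlike-numbered pairs, and replicates 3 (-0.0142) and 4 (-0.0155) did not. These values do not settle whether the number pairs libraries. With the replicate block 6 members were higher and 1 lower, also with GC and length offsets, and over all genes 2526 were higher and 2618 lower; the call of Por was lost (adjusted p = 0.0647). Counts near 0, such as those of Alas2, are too few at this depth to show a difference.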
